A study of Mus musculus with 8 samples.

Results

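The transcripts of the translation initiation factors were measured by bulk RNA-seq of the tibialis anterior (TA), a limb muscle, in 4 samples from WT and 4 from *mdx5cv* mice. All mice were 6 mo old, and WT and *mdx5cv* mice were of the C57/Bl6 strain. The study's methods describe the use of males unless stated otherwise. *mdx5cv* mice carry an inherited point mutation in *Dmd*, the gene for dystrophin, and are a model of Duchenne muscular dystrophy. Members were all genes of the table whose symbol starts with Eif followed by a digit from 1 to 6, except *Eif2ak2*, *Eif2s3x*, *Eif2s3y* and the pseudogenes (names ending in -ps, with or without a number), of which 10 were left out. This gave 55 members of 55401 genes, and the rule used no measured value. The values are normalized counts, that is, reads of a gene divided by a size factor for the muscle. Members were tested where their normalized count averaged 10 or more over the 8 muscles, which held for 49 of them and for 13677 genes in all. *Eif2c5*, an older symbol of the Argonaute family and not an initiation factor, *Eif4a3l1* and *Eif4e1b* had 0 reads in all muscles. Reads were few for *Eif3j2* (3 to 8 a muscle), *Eif4ebp3* (0 to 13) and *Eif4a3l2* (0 to 3), and these 3 were not tested.

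Translation of most mRNAs starts when the cap-binding protein eIF4E, the scaffold eIF4G and the RNA helicase eIF4A bring an mRNA to the small ribosomal subunit, which already holds eIF3, eIF1, eIF1A and the initiator tRNA delivered by eIF2. The subunit scans to the start codon, where eIF5 triggers GTP hydrolysis by eIF2 and eIF5B joins the large subunit. Control acts mainly on the proteins: 4E-BPs block eIF4E unless phosphorylated through mTORC1, and stress kinases phosphorylate the alpha subunit of eIF2, which then traps its exchange factor eIF2B. These steps set the protein synthesis on which muscle mass depends. Transcript levels, which were measured here, report neither phosphorylation nor protein synthesis.

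Each library held 13175524 to 14921057 reads. The size factors lay between 0.873 and 0.944 in WT and between 1.06 and 1.25 in *mdx5cv*. *Dmd* was lower in *mdx5cv* (3461 to 4400 normalized counts) than in WT (6169 to 8155), with no overlap. Markers of other cells also differed between the groups. All 6 macrophage markers were higher in *mdx5cv*, with a summed normalized count of 384 to 599 in WT and 3633 to 8990 in *mdx5cv*. The same held for 6 of 6 genes of regenerating fibers (118 to 143 against 2175 to 8502), 4 of 5 fibroblast genes (5196 to 7870 against 17446 to 31390) and 3 of 4 satellite cell genes (234 to 295 against 525 to 945). Of these genes *Cd14*, *Chrng*, *Mymk* and *Mymx* averaged under 10 in WT and passed the filter on low values only through *mdx5cv*, so that they had to differ. All 4 endothelial genes were lower (2394 to 2882 against 1438 to 1878), as were 1 of 3 adipocyte genes and 2 of 5 genes of mature muscle, *Ckm* and *Mb*. The sum of the 5 muscle genes (2824830 to 3008030 against 1921360 to 2585480) was mostly *Ttn*, which was not among these 2. All *mdx5cv* values of *Ttn* lay below all WT values, but its log2 fold change of −0.33 was not called (limma, adjusted p = 0.638). No lymphocyte marker had over 9 reads in a muscle. The part of these cell types in the changes below was not tested. In whole muscle, fewer cells of a type and less RNA per cell cannot be told apart.

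Transcripts of the translation initiation factors differed between *mdx5cv* and WT by small amounts and in both directions. At an adjusted p under 0.05 (limma on log2(normalized count + 1), Benjamini-Hochberg adjustment over all 13677 genes), 18 of the 49 members differed between *mdx5cv* and WT, which is 36.7%, against 40.9% of all genes tested. Of these, 5 were higher in *mdx5cv* (10.2%, against 20.9% of all genes) and 13 were lower (26.5%, against 20.1%). Among the members called, the largest absolute log2 fold change was 0.56. With a minimum absolute log2 fold change of 1, limma called 0 members, against 13.6% of all genes, and edgeR and DESeq2 also called 0. The 4 values of one group all lay beyond the 4 of the other in 14 members (28.6%, against 40.1% of all genes), of which 4 were higher and 10 lower. The median log2 fold change of the members was −0.14 and that of all genes 0.00. The median of the absolute log2 fold changes was 0.276 in the members and 0.357 over all genes, and the median standard error was 0.119 against 0.166. In 19 members the 95% interval of the log2 fold change lay within ±0.5.

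**Figure D1:**
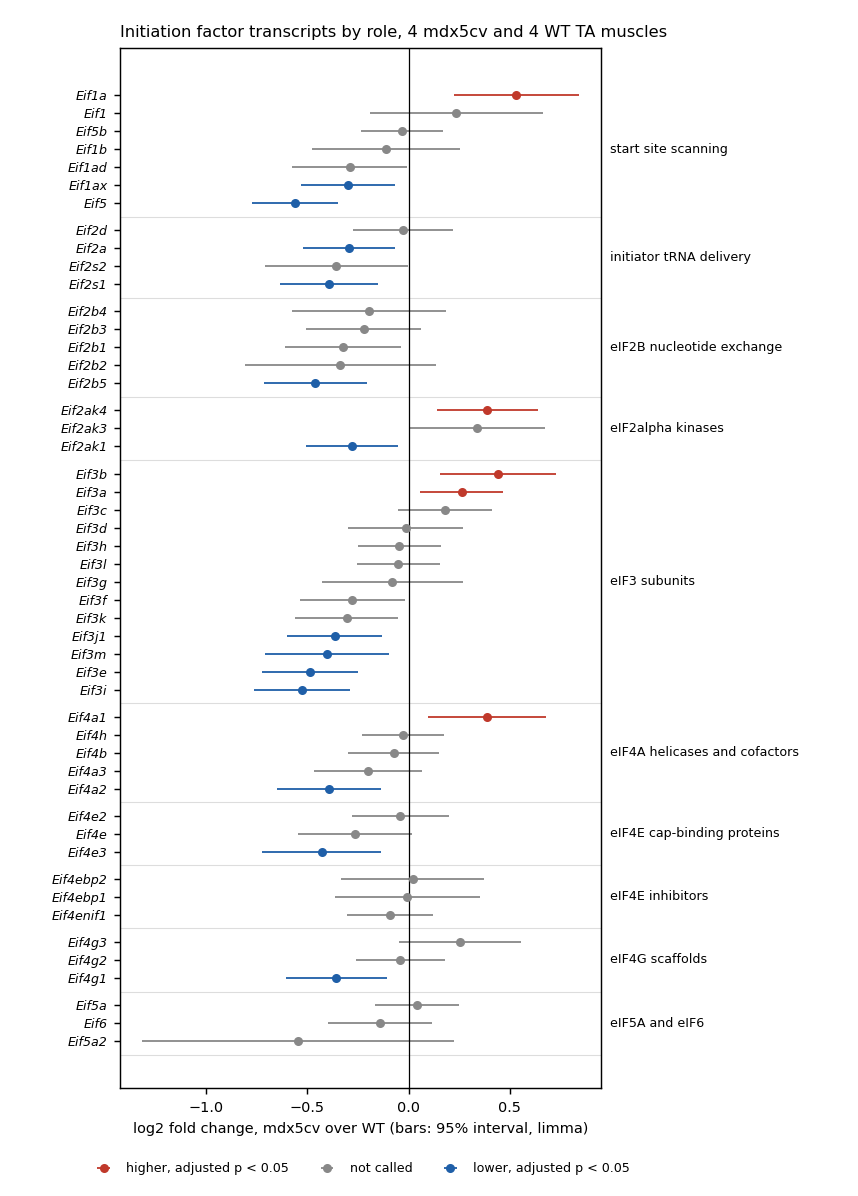
Log2 fold change (x axis, *mdx5cv* over WT, n = 4 muscles a group) of each of the 49 members tested, grouped by role, with the 95% interval of limma as bars. The 13 members in blue were lower and the 5 in red higher at an adjusted p under 0.05, and none of the 18 passed ±0.56; when muscles were scaled to equal totals instead, 15 members were called higher and 0 lower.

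The sign of most of these values depended on how the muscles were scaled. The deposited size factors set the median of all genes near 0, whereas equal totals moved that median to 0.36, so that 15 members were called higher and 0 lower (20 higher and 0 lower at an unadjusted p under 0.05). Of the 13 members called lower, 9 kept a negative value under equal totals and 0 were called, while the 5 called higher were all called there too. Besides these 5, equal totals called *Eif1*, *Eif2ak3*, *Eif3c*, *Eif3h*, *Eif4b*, *Eif4g2*, *Eif4g3*, *Eif4h*, *Eif5a* and *Eif5b* higher. With mitochondrial genes left out of the totals, an alternative added after the data were seen, the median of all genes was 0.21, and 8 members were called higher and 2 lower. Relative to the median of all genes the median of the members was −0.14 under each of these 3 scalings. The reads of all members together made up 0.257 to 0.291% of a WT library and 0.284 to 0.339% of an *mdx5cv* library. All changes below are therefore relative to the typical gene of the muscle.

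**Figure D2:**
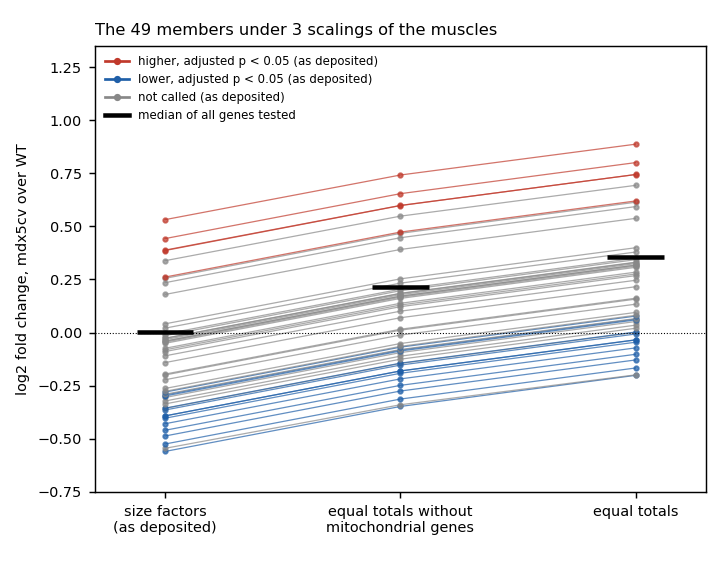
Log2 fold change (y axis, *mdx5cv* over WT) of the 49 members under the deposited size factors, under equal totals without mitochondrial genes and under equal totals, with a line for each member and a black bar at the median of all genes tested. The lines run almost parallel as the black bar moves from 0.00 to 0.21 and 0.36, and the lines of many members cross 0 on the way.

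Among the factors that scan for the start codon, *Eif5* (chr12:111538016-111546752, plus strand, GRCm38), which stimulates the GTPase of eIF2 at the start codon, had the largest decrease of the members called. *Eif5* was found at 1822, 1985, 1796 and 1741 normalized counts in the WT muscles and at 1354, 1242, 1291 and 1104 in the *mdx5cv* muscles. The groups were well apart, and *Eif5* fell by 32.1% (log2 fold change −0.56, SE 0.10, adjusted p = 0.0006). *Eif1a* and *Eif1ax* both encode eIF1A, which keeps the scanning ribosome in its open state, and went in opposite directions. *Eif1a* (chr18:46597701-46616456, plus strand) stood at 94.0, 80.1, 89.6 and 105 in WT and at 133, 129, 115 and 157 in *mdx5cv*, where every muscle exceeded every WT muscle. It was 1.45 times as high in *mdx5cv* (log2 fold change 0.53, adjusted p = 0.0095), and it was the only member whose call held under all 20 alternatives. *Eif1ax*, on the X chromosome, was the far more abundant copy, with 1085, 1071, 1008 and 862 in WT and 823, 846, 884 and 717 in *mdx5cv*. Its groups overlapped by 1 WT muscle, and the log2 fold change was −0.30 (adjusted p = 0.041), turning to 0.06 under equal totals. The call on *Eif1ax* was kept in 2 of the 8 fits that left out a muscle. Within a muscle *Eif1a* had 0.0924 of the normalized counts of *Eif1ax* in WT and 0.164 in *mdx5cv*, a ratio chosen after its values were seen and given without a test. The sequences of the pair are close, so reads may have been shared between them in mapping. The other 4 members grouped here by name, not all of which scan (*Eif1*, *Eif1b*, *Eif1ad* and *Eif5b*, which joins the subunits), had log2 fold changes of −0.29 to 0.24. They were not called.

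The members that deliver the initiator tRNA, without *Eif2s3x* and *Eif2s3y*, which the rule left out, had negative values in 4 of 4. The values were −0.39 to −0.03, and 38 of the 49 members had a negative value. Of the 4, 2 passed the test (50%, against 40.9% of all genes). Under equal totals 3 of the 4 turned positive and their median was 0.03. *Eif2s1* encodes the alpha subunit of eIF2, the substrate of the stress kinases. Its normalized counts were 419, 362, 373 and 337 in WT and 301, 260.4, 308 and 265 in *mdx5cv*, with no overlap. *Eif2s1* fell by 23.8% (log2 fold change −0.39, SE 0.11, adjusted p = 0.013). *Eif2s2*, the beta subunit, had 1004, 575, 1019 and 998 in WT and 698, 709, 705 and 625 in *mdx5cv*. Here 1 muscle, WT replicate 2, lay below all *mdx5cv* muscles while the other 3 lay above them. The log2 fold change was −0.36 (95% interval −0.71 to −0.0044, adjusted p = 0.098) with all muscles and −0.56 (adjusted p = 0.00056) without WT replicate 2. *Eif2a*, an alternative carrier of the initiator tRNA, fell by 0.29 on the log2 scale (adjusted p = 0.039) but turned to 0.06 under equal totals. The call on *Eif2a* was kept in 1 of the 8 fits that left out a muscle. *Eif2d* was close to level (−0.03).

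All 5 subunits of eIF2B, the factor that reloads eIF2 with GTP, had negative log2 fold changes, of −0.46 to −0.20, which became −0.10 to 0.16 under equal totals. Of the 5, 20% passed the test, against 40.9% of all genes, namely only *Eif2b5* (chr16:20498817-20509323, plus strand), the catalytic epsilon subunit. It was at 527, 673, 514 and 585 in WT and at 406, 445, 453 and 364 in *mdx5cv*, so the highest *mdx5cv* value was under the lowest WT value. *Eif2b5* fell by 27.3% (SE of the log2 value 0.12, adjusted p = 0.0072). *Eif2b1* (−0.32, adjusted p = 0.067), *Eif2b2* (−0.34, 0.24), *Eif2b3* (−0.22, 0.19) and *Eif2b4* (−0.20, 0.40) were not called.

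The kinases that phosphorylate the alpha subunit of eIF2, without *Eif2ak2*, which the rule left out, did not move as 1 group. *Eif2ak4* encodes GCN2, the sensor of amino acid shortage. Its values of 117, 117, 108 and 122 in WT and 160.3, 150.0, 147 and 152 in *mdx5cv* were tight within each group and did not overlap. *Eif2ak4* was 1.31 times as high in *mdx5cv* (log2 fold change 0.39, SE 0.11, adjusted p = 0.016), although the adjusted p was 0.0502 without WT replicate 3, 0.052 without *mdx5cv* replicate 1 and 0.059 under median centring. *Eif2ak1*, the heme-regulated kinase, went the other way, with 508, 490.3, 504 and 578 in WT and 419, 478, 435 and 383 in *mdx5cv*. Its decrease of 17.6% was at the edge of the threshold (adjusted p = 0.048 in limma, 0.051 with edgeR and 0.051 with DESeq2). The value turned to 0.08 on the log2 scale under equal totals. The call on *Eif2ak1* was kept in 2 of the 8 fits that left out a muscle. *Eif2ak3* encodes PERK, the sensor of the endoplasmic reticulum, and had 76.8, 84.5, 91.8 and 72.0 in WT against 109, 80.2, 117 and 108 in *mdx5cv*. In 3 *mdx5cv* muscles it exceeded every WT muscle and in replicate 2 it did not, so that the log2 fold change was 0.34 (adjusted p = 0.0998) with all muscles and 0.46 (adjusted p = 0.033) without that one. Exons of *Eif2ak1* overlap those of *Ankrd61* and *Aimp2* on the opposite strand, and whether the counting used the strand is not given in the sources used here. The same holds for *Eif2ak3*, *Eif3m*, *Eif3j1*, *Eif2a*, *Eif1ad*, *Eif1b*, *Eif2b4*, *Eif2d*, *Eif3d*, *Eif5b* and *Eif6*, each with an opposite-strand gene over its exons.

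eIF3 is the largest initiation factor, a complex that binds the small subunit and links it to eIF4G. Of its 14 genes 13 were tested, and 2 were higher, 4 lower and 7 not called (46.2% called, against 40.9% of all genes), with a median log2 fold change of −0.08 (0.28 under equal totals). The RNA-binding core subunits *Eif3a* and *Eif3b* were the 2 that rose. *Eif3b* had 359, 400.4, 285 and 354 in WT and 450.2, 476, 405 and 571 in *mdx5cv*. It was 1.36 times as high (log2 fold change 0.44, adjusted p = 0.017; 0.063 without WT replicate 3), and *mdx5cv* replicate 4 was its highest muscle. *Eif3a*, with the highest mean normalized count of the group over all 8 muscles, had 1104, 916, 978 and 1033 in WT and 1195, 1236, 1127 and 1267 in *mdx5cv*. The groups were apart by little, at a log2 fold change of 0.26 (adjusted p = 0.043; 0.20 under median centring). That call was lost in 7 of the 8 fits that left out a muscle, in which the log2 fold change was 0.22 to 0.29 and the adjusted p up to 0.105.

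The eIF3 subunits that fell were *Eif3i*, *Eif3e*, *Eif3m* and *Eif3j1*. *Eif3i* (chr4:129591960-129600648, minus strand), a subunit attached to the core through *Eif3b*, read 706, 878, 725 and 711 in WT and 531, 561, 547 and 457 in *mdx5cv*. It fell by 30.5% (log2 fold change −0.52, SE 0.11, adjusted p = 0.0021), opposite in direction to its partner. *Eif3e* had 1091, 1003, 973 and 782 in WT and 677, 678, 689.8 and 680.0 in *mdx5cv*. Its *mdx5cv* muscles lay close together and all below WT, and *Eif3e* fell by 28.6% (adjusted p = 0.0033). *Eif3m* had 581, 759, 585 and 445 in WT and 449, 398, 457 and 458 in *mdx5cv*, so WT replicate 4 lay among the *mdx5cv* muscles. The log2 fold change of *Eif3m* was −0.40 (adjusted p = 0.036), and the call was lost in 7 of the 8 fits that left out a muscle, with adjusted p up to 0.0889. *Eif3j1*, a loosely bound subunit, had a log2 fold change of −0.36 (adjusted p = 0.017; 0.062 without WT replicate 1), with no overlap. Under equal totals these 4 subunits kept negative values, of −0.17 to −0.01, that were not called. The subunits not called were *Eif3k* (−0.31, adjusted p = 0.052), *Eif3f* (−0.28, 0.082), *Eif3g*, *Eif3l*, *Eif3h*, *Eif3d* (−0.08 to −0.01) and *Eif3c* (0.18).

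**Figure D3:**
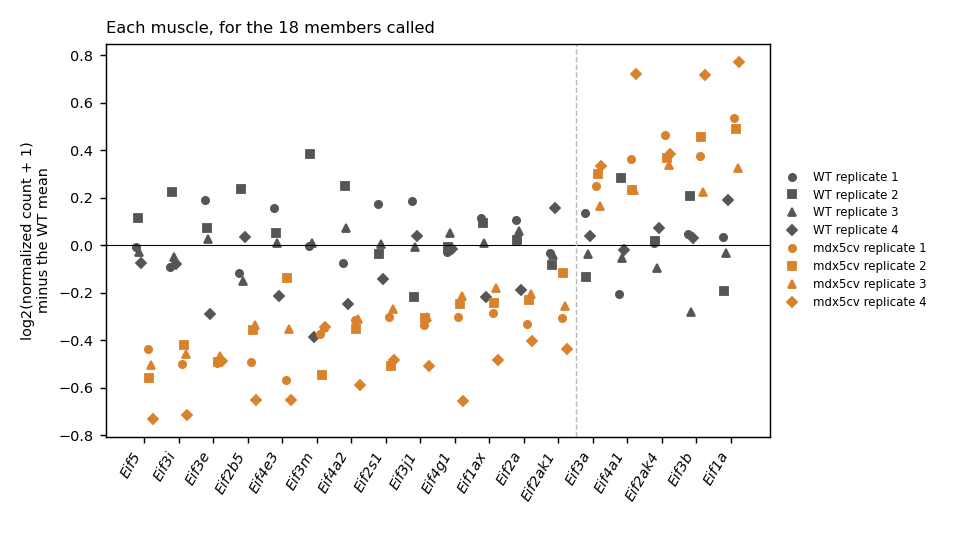
Value of each muscle (y axis, log2(normalized count + 1) minus the WT mean) for the 18 members called, with the 13 lower members left of the dashed line and the 5 higher members right of it. WT muscles are grey, *mdx5cv* muscles orange and symbols mark replicates; *mdx5cv* replicate 4 is the lowest of its group in 10 of the 13 lower members and the highest in 4 of the 5 higher members.

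The helicase eIF4A exists in forms encoded by *Eif4a1* and *Eif4a2*, which both work with eIF4G, and these moved in opposite directions. *Eif4a2* (chr16:23107444-23114136, plus strand), the more abundant form in WT muscle, had 2153, 2692, 2386 and 1908 in WT and 1819, 1774, 1829 and 1506 in *mdx5cv*. It fell by 23.8% (log2 fold change −0.39, SE 0.12, adjusted p = 0.019; 0.056 without WT replicate 3), with no overlap. Under equal totals *Eif4a2* was close to level, at −0.03, and was not called (limma, adjusted p = 0.818). *Eif4a1* (chr11:69666936-69672423, minus strand) had 492, 689, 546 and 558 in WT and 728, 666, 666 and 934 in *mdx5cv*. Of its WT muscles replicate 2 lay within the *mdx5cv* range and the others lay below it, and the log2 fold change was 0.39 (SE 0.13, adjusted p = 0.035). The call on *Eif4a1* was lost in 5 of the 8 fits that left out a muscle, with adjusted p up to 0.11, and under median centring, with 0.084. The ratio of *Eif4a2* to *Eif4a1* within a muscle, which apart from the pseudocount does not depend on the scaling, fell in value from 3.99 in WT to 2.33 in *mdx5cv*. On the log2 scale the ratio was 2.13, 1.97, 2.13 and 1.77 in the WT muscles and 1.32, 1.41, 1.46 and 0.69 in the *mdx5cv* muscles. All 4 *mdx5cv* muscles were below all WT muscles, by 0.78 on average (exact permutation test, two-sided, p = 0.0286, the smallest that 70 splits allow; 0.105 adjusted over 11 pairs). Genes for small nucleolar RNAs lie within both *Eif4a* genes, and such genes overlap exons of *Eif4a1*, *Eif4g1*, *Eif4g2* and *Eif5*. The helicase *Eif4a3* of the exon junction complex and the cofactors *Eif4b* and *Eif4h* were not called (−0.20 to −0.03).

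The 100 bases before the annotated start are shown for these helicase genes, which moved in opposite directions, and for *Eif5* and *Eif4g1*, which encode the factor with the largest decrease and the scaffold of the cap complex. They are RefSeq sequences of GRCm38.p6, 5′ to 3′ on the strand of the gene, with capitals for the motifs searched, namely the GC box (GGGCGG), the CCAAT box (CCAAT), the E-box (CACGTG), an ETS site (CCGGAAG) and the core of the cAMP response element (TGACGT), each on both strands. The starts are those of RefSeq, and for *Eif5*, *Eif4a2* and *Eif4g1* they lie inside the GENCODE gene coordinates given in the text.
Eif4a1, chr11:69672424-69672523, minus strand: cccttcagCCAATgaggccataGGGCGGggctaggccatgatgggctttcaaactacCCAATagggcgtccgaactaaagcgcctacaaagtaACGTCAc
Eif4a2, chr16:23107368-23107467, plus strand: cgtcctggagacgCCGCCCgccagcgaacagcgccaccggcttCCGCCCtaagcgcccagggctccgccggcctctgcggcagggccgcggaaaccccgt
Eif5, chr12:111538001-111538100, plus strand: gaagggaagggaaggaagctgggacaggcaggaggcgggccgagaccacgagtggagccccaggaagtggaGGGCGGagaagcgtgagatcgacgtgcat
Eif4g1, chr16:20672627-20672726, plus strand: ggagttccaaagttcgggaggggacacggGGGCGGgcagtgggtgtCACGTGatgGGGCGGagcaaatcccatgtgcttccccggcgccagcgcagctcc
The window of *Eif4a1* held 2 CCAAT boxes, 1 GC box and 1 response element core, and that of *Eif4a2* held 2 GC boxes and none of the other letters. *Eif4g1* had an E-box between 2 GC boxes. Windows of the same length for *Eif3b*, *Eif2ak4*, *Eif2b5* and *Eif2s1* were also searched. They held none of these motifs and are not printed. In the 250 bases before the start, 29 of the 40 members found in the RefSeq table held a GC box, which is 72.5%, against 32.94% of 27025 promoters. An ETS site was found in 10 (25%, against 7.053%), an E-box in 7 (17.5%, against 6.046%), a response element core in 6 (15%, against 6.561%) and a CCAAT box in 12 (30%, against 34.46%). The 27025 promoters were taken without the filter on low values, which all 40 members had passed. Whether other genes that passed the filter have the same shares was not tested. A GC box was found in 3 of the 4 higher and 9 of the 10 lower members that had a promoter in the table, so it was common to both directions. These letters describe the windows and are not evidence of binding.

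eIF4E binds the cap and is joined by relatives. *Eif4e* itself had 898, 682, 894 and 769 in WT and 737, 741, 697 and 534 in *mdx5cv*. The groups overlapped, and the log2 fold change of −0.26 did not pass (adjusted p = 0.126); it was 0.09 under equal totals. *Eif4e3*, a relative with an atypical cap contact, had 308, 286, 279 and 238 in WT and 186, 251, 216 and 176 in *mdx5cv*. It fell by 25.7% (adjusted p = 0.022), but 1 muscle of each group lay in the other's range, and the call was lost without any of WT replicates 1 and 3 and *mdx5cv* replicates 1 and 4 (adjusted p of 0.0519 to 0.0698). A protein-coding gene annotated on the same strand, *Gm20696*, shares exon sequence with *Eif4e3*. *Eif4e2*, a repressive relative, had a log2 fold change of −0.04.

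Transcripts of the eIF4E inhibitors were close to level. *Eif4ebp1* had 244, 257, 224 and 162 in WT and 184, 254, 188 and 254 in *mdx5cv*, and *Eif4ebp2* had 1577, 1362, 1016 and 1824 in WT and 1720.4, 1229, 1347 and 1482 in *mdx5cv*. The groups overlapped over most of their range in both. The log2 fold change was −0.01 for *Eif4ebp1* (95% interval −0.36 to 0.35, adjusted p = 0.978) and 0.02 for *Eif4ebp2* (−0.33 to 0.37, adjusted p = 0.931). *Eif4enif1*, which encodes the transporter of eIF4E, had 355, 335, 334 and 318 in WT and 314, 338, 308 and 301 in *mdx5cv*, with a log2 fold change of −0.09 (−0.30 to 0.12, adjusted p = 0.497). Under equal totals the 3 values were 0.27 to 0.38 and were not called.

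Both leading scaffolds of the eIF4G family had the highest mean levels per length in WT. Per kilobase of exon, *Eif4g1* had 837 ± 20.7 (SD, n = 4) normalized counts in WT and *Eif4g2* had 638 ± 26.5, ahead of *Eif5a*, *Eif4a2* and *Eif4b*. *Eif4g1* (chr16:20668313-20692884, plus strand), the main scaffold, which holds eIF4E, eIF4A and eIF3, had 5994, 6077, 6329.8 and 6034 in WT and 4955, 5136, 5257 and 3877 in *mdx5cv*. The WT muscles were within a narrow range above all *mdx5cv* muscles, of which replicate 4 was much the lowest. *Eif4g1* fell by 21.9% (log2 fold change −0.36, SE 0.12, adjusted p = 0.025; 0.053 without WT replicate 1 and 0.070 without WT replicate 3), and the value was 0.00 under equal totals. *Eif4g2*, which lacks the eIF4E-binding site and serves cap-independent initiation, had 6684, 6396, 6146 and 6719 in WT and 6836, 5887, 6191 and 6330.5 in *mdx5cv*. Its log2 fold change was −0.04 (95% interval −0.26 to 0.18), and its groups overlapped. Under equal totals *Eif4g2* was at 0.32 and called higher (limma, adjusted p = 0.040). *Eif4g3*, the third scaffold, had 1667, 1257, 1735 and 1999 in WT and 2109, 2107, 2016 and 1648 in *mdx5cv* (log2 fold change 0.26, adjusted p = 0.161). Within a muscle the ratio of *Eif4g2* to *Eif4g1* was 1.06 in WT and 1.32 in *mdx5cv*, and that of *Eif4g3* to *Eif4g1* was 0.269 in WT and 0.411 in *mdx5cv*. Both ratios were higher in every *mdx5cv* muscle than in any WT muscle, by 0.32 and 0.61 on the log2 scale (exact permutation test, p = 0.0286 each; 0.105 adjusted over 11 pairs). They share *Eif4g1* as the denominator, so its decrease enters both and they are not independent.

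**Figure D4:**
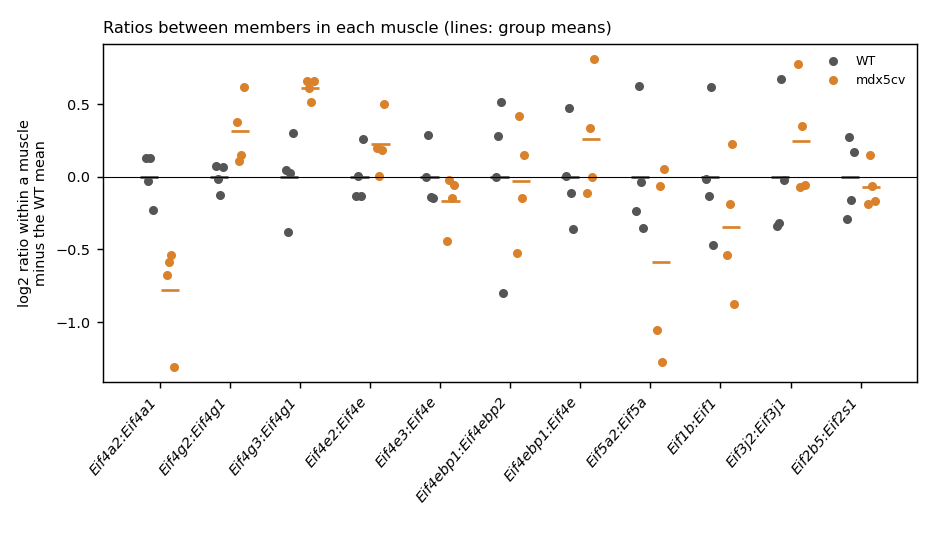
Log2 ratio of the normalized counts of 11 pairs of members within each muscle (y axis, minus the WT mean), with WT muscles in grey, *mdx5cv* muscles in orange and lines at the group means (n = 4). The groups did not overlap for *Eif4a2* to *Eif4a1*, *Eif4g2* to *Eif4g1* and *Eif4g3* to *Eif4g1*, and overlapped in the other 8 pairs. After adjustment over the 11, 0 pairs passed. The pairs without overlap already had the smallest p that the exact permutation test allows, so they could not have passed.

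The other 8 ratios overlapped between the groups. Among them *Eif2b5* to *Eif2s1*, the exchange factor over its substrate, was 1.54 in WT and 1.47 in *mdx5cv*, and *Eif4ebp1* to *Eif4e*, the inhibitor over the cap-binding protein, was 0.272 in WT and 0.325 in *mdx5cv* (exact permutation test, two-sided, p = 0.686 and 0.457). *Eif5a2* to *Eif5a* was 0.0243 in WT and 0.0162 in *mdx5cv*, and the value rested on few reads of *Eif5a2* (p = 0.257 in the same exact test).

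eIF5A, which despite its name acts mainly in elongation and termination, and eIF6, which keeps free large subunits apart from small ones, were not called. *Eif5a* was among the most abundant members, with 1327, 1549.9, 1393 and 1496 in WT and 1514, 1505, 1355 and 1557 in *mdx5cv*, and its log2 fold change was 0.04 (95% interval −0.16 to 0.25). The range of *Eif5a* was nearly the same in both groups, but under equal totals it was at 0.40 and called higher (limma, adjusted p = 0.018). *Eif5a2* was the least abundant member tested, at 7.11 ± 2.87 (SD, n = 4) normalized counts per kilobase in WT, and its log2 fold change of −0.54 had an interval of −1.31 to 0.22. *Eif6* had a log2 fold change of −0.14 (adjusted p = 0.368).

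Levels per kilobase spanned from 7.11 to 837 in WT. The first ranks were *Eif4g1*, *Eif4g2* (638) and *Eif5a* (606), the latter 2 with overlapping spreads, then *Eif4a2* (428) and *Eif4b* (413), which also did not differ beyond their spread. Besides *Eif5a2* the lowest levels were those of *Eif2ak3* (13.5), *Eif2ak4* (15.6), *Eif2b3* (20.6) and *Eif1a* (22.1). Thus 2 of the members that rose, *Eif2ak4* and *Eif1a*, were among the lowest in level.

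**Figure D5:**
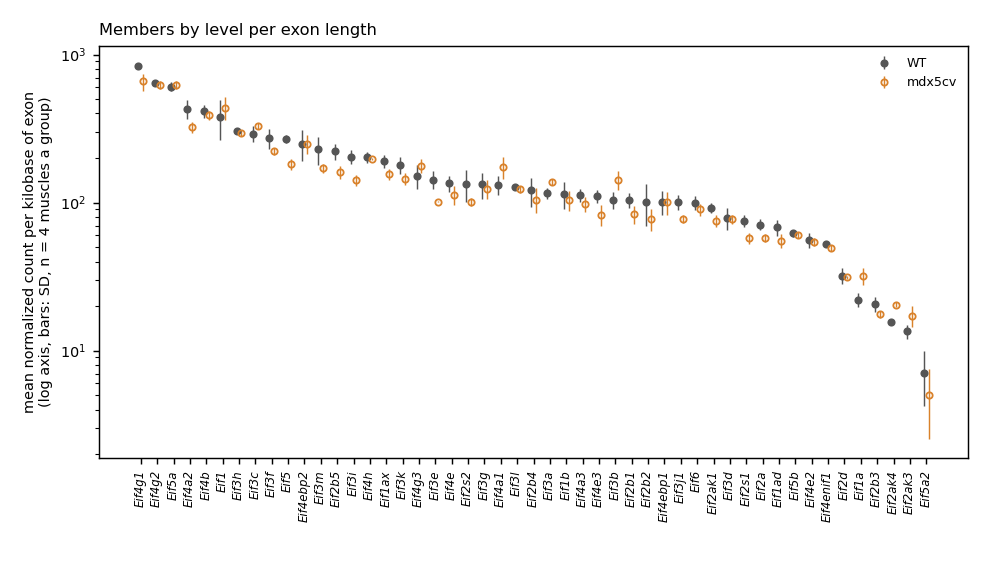
Mean normalized count per kilobase of exon (y axis, log scale; bars are the SD, n = 4 muscles a group) of the 49 members, ordered by the WT level, with WT filled grey and *mdx5cv* open orange. Levels ran from 837 for *Eif4g1* to 7.11 for *Eif5a2* in WT, and the symbols of the groups lie close together for most members.

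Genes that act next to the initiation factors were counted in lists taken from general knowledge. Of 11 elongation and release factors, 1 was higher and 5 were lower (54.5% called, against 40.9% of all genes), with a median log2 fold change of −0.32. *Eef1a1*, which encodes the form of the elongation factor found outside adult muscle fibers, had 2524, 3702, 2543 and 2171 in WT and 6265, 5447, 5368 and 10134 in *mdx5cv* (log2 fold change 1.29). Every *mdx5cv* muscle exceeded every WT muscle, and replicate 4, with the highest macrophage and regenerating fiber sums, was the highest. *Eef1a2*, the form of adult fibers, had a log2 fold change of −0.25 (adjusted p = 0.229), named here beside its partner after its values were seen. The largest decreases in the list were *Eef2k*, the kinase that inhibits the elongation factor eEF2, at −0.71 and the release factor *Etf1* at −0.55. With equal totals instead, 4 factors were called higher and 1 lower.

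Of 20 targets of the integrated stress response, the program that follows phosphorylation of eIF2, 18 were tested and 6 were higher and 3 lower (9 of 18 called, against 40.9% of all genes; median log2 fold change 0.18). The largest increases were those of *Psat1*, an enzyme of serine synthesis, and *Slc7a5*, an amino acid transporter. *Psat1* had 6.88, 7.68, 9.95 and 12.7 normalized counts in WT and 50.03, 48.1, 40.5 and 104 in *mdx5cv* (log2 fold change 2.51), and *Slc7a5* had 9.17, 6.58, 11.1 and 11.7 in WT and 42.6, 42.5, 44.1 and 93.5 in *mdx5cv* (2.36). Both were low in level in WT, with no overlap and with *mdx5cv* replicate 4 highest. *Psat1*, *Slc7a5* and *Asns*, which are 3 of the 6 genes called higher, averaged under 10 in WT and passed the filter only through *mdx5cv*, so that they had to differ. Of the other 15 genes 3 were higher and 3 lower, with a median log2 fold change of 0.0010. The largest decreases were those of *Vldlr*, a lipoprotein receptor (−0.94), and *Cebpg*, a partner of ATF4 (−0.68). *Atf4*, the main transcription factor of the program, which is controlled mostly at translation, had 1129, 1242, 1141 and 1098 in WT and 741, 729, 798 and 666 in *mdx5cv* (log2 fold change −0.65), and is named after its values were seen. Thus transcripts of the list went both ways.

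Of 19 regulators of mTORC1, MNK and the cap complex, 2 were higher and 3 lower (26.3% called, against 40.9% of all genes), with a median log2 fold change of −0.14. *Pabpc1*, the poly(A)-binding protein that joins eIF4G to the mRNA tail, had 497, 466, 346 and 596 in WT and 745, 669, 629 and 1296 in *mdx5cv* (log2 fold change 0.77). *Rptor*, a subunit of mTORC1, was called at 0.31 (adjusted p = 0.046), with a loss of the call in 7 of the 8 fits that left out a muscle (adjusted p up to 0.0991). *Paip1*, a partner of *Pabpc1*, fell by 0.58 and *Tsc1*, an inhibitor of mTORC1, by 0.35 on the log2 scale, and under equal totals *Tsc1* was at 0.01.

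Fewer of all genes tested were called in every fit that left out a muscle, with 4719 to 5478 against 5597 in all 8 muscles. Of the 18 members called, 6 kept the call in all 8 fits that left out a muscle, namely *Eif5*, *Eif3i*, *Eif3e*, *Eif2b5*, *Eif2s1* and *Eif1a*. The number called was 7 without WT replicate 3, 10 without *mdx5cv* replicate 1, 11 without WT replicate 1 and 11 without *mdx5cv* replicate 4, and all 18 kept their direction in these fits. Among the *mdx5cv* muscles replicate 4 was the lowest in 21 of the 49 members, and it also had the largest size factor (1.25) and the highest macrophage (8990) and regenerating fiber (8502) sums. Without it 3 members were higher and 8 lower.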

How the data were processed

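RNA had been extracted with Trizol from whole TA muscles, and ribosomal RNA had been depleted for stranded total RNA libraries. The table that the authors deposited holds a signal, namely the reads of each gene over the size factor of its muscle. The submitters' processing notes name FastQC, Trim Galore 0.6.4, STAR 2.6.0c, SAMtools 1.9, featureCounts, MultiQC 1.6, DESeq2 1.26.0, R 3.6.2 and the mm10 genome; how multi-mapping reads and strand were counted is not given in the sources used here. Multiplying back gave whole reads, to within 0.001 of a read, in 100% of cells of the table, and median-of-ratios scaling returned the same size factors.

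The 4 *mdx5cv* and 4 WT muscles, grouped by their labels, were compared by limma (version 3.58.1, under R 4.3.3) after a log2 transform with a pseudocount of 1. The two-sided fit, with lmFit and a trended eBayes and without covariates, took in the 13677 genes whose normalized count averaged 10 or more, and Benjamini-Hochberg adjustment ran over all of these. Fold changes are on that log2 scale, and n is 4 muscles a group. Nothing in the labels says whether each muscle came from its own mouse, so p-values measure the spread between these samples. Pairs of replicates had chi-square values of 9.555 to 43.23 per degree of freedom, and none was counted as a copy. As alternatives, the recovered reads were tested with the quasi-likelihood test of edgeR 4.0.16 and with DESeq2 1.42.0. Other alternatives were pseudocounts of 0.1 and 10, no filter, a stricter filter with 10 as the minimum of each single muscle, equal totals, median centring, TMM factors, eBayes without a trend, a block for the replicate number and the omission of each muscle. Ratios between members within a muscle were compared by an exact permutation test. Levels per kilobase used the merged exon length of GENCODE M21 (GRCm38), in which 55141 gene IDs were found. Promoters came from RefSeq on GRCm38.p6; *Eif1a*, *Eif2b3*, *Eif3e*, *Eif3h*, *Eif3i*, *Eif4e3*, *Eif4ebp1*, *Eif4g2* and *Eif6* were missing there. Scripts were tested on simulated data. Other steps used scipy 1.17.1, matplotlib 3.10.9, pandas 2.3.3 and numpy 2.4.6 under Python 3.11.15.

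Values in every muscle are given for the 12 members with the largest absolute change among those called, *Eif4g1*, the kinases and eIF4E inhibitors tested, and the member of each role with the highest mean; *Eif1ax* and *Eif4g3* were added after their values were seen. From each list of neighbouring genes the 2 largest rises and falls that passed are named. The members and lists were chosen with earlier results of these data known.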

Additional observations from a re-analysis of the deposited data

Results flagged for a closer look

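Within the groups of 4 muscles, 9 of 98 sets of values (49 members in each of the 2 groups) had 1 muscle far from the other 3 (the gap to the nearest muscle over the whole range exceeded Dixon's 95% critical value); chance alone would give about 4.9. All values in this paragraph are log2(normalized count + 1). *mdx5cv* replicate 4 was the lowest of its group for *Eif3j1* (8.68, others 8.85 to 8.88), *Eif2s2* (9.29, others 9.45 to 9.47), *Eif2b3* (6.73, others 6.88 to 6.91) and *Eif4a2* (10.56, others 10.79 to 10.84). WT replicate 2 was the lowest for *Eif2s2* (9.17, others 9.96 to 9.99) and *Eif3d* (8.20, others 8.71 to 8.74) and the highest for *Eif3i* (9.78, others 9.47 to 9.50). *mdx5cv* replicate 2 was the lowest for *Eif3m* (8.64, others 8.81 to 8.84), and *mdx5cv* replicate 1 was the highest for *Eif4h* (10.14, others at 10.09).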

How the results depend on the processing

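Pseudocounts of 0.1 and 10 and a minimum in every muscle left the count at 5 higher and 13 lower members, TMM factors, edgeR and DESeq2 gave 5 and 12, and no filter gave 4 and 9. Without a variance trend 3 members were higher and 9 lower, and with median centring 2 and 18. The cause of these shifts was not tested. In limma, equal totals gave 15 higher and 0 lower members (20 and 0 at an unadjusted p under 0.05), and 10 members were called under equal totals without mitochondrial genes (8 higher, 2 lower). Leaving out 1 muscle gave 7 to 19 calls, of which 1 to 5 were higher and 6 to 15 lower. Over all genes the higher share of the calls was 51.0%, against 86.9% with equal totals (5444 higher, 820 lower), 74.7% with equal totals without mitochondrial genes (1398 lower) and 41.2% with median centring.

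Among the values recomputed for single members under the 20 alternatives, 803 kept their direction and their side of the threshold. Without a change of sign, 88 lost the call and 24 gained it. The other 65 changed sign, and some of these also lost or gained a call. Under equal totals the log2 fold changes that turned positive were *Eif2s2* 0.0011, *Eif4g1* 0.0025, *Tsc1* 0.010, *Eif2b2* 0.020, *Eif2b1* 0.035, *Eif3k* 0.052, *Eif1ax* 0.059, *Eif2a* 0.064, *Eif1ad* 0.066, *Eif2ak1* 0.078, *Eif3f* 0.081, *Eif4e* 0.095, *Eif2b3* 0.13, *Eif4a3* 0.16, *Eif2b4* 0.16, *Eif6* 0.22, *Eif1b* 0.25, *Eif4enif1* 0.27, *Eif3g* 0.28, *Eif4b* 0.28, *Eif3l* 0.31, *Eif3h* 0.31, *Eif4e2* 0.32, *Eif4g2* 0.32, *Eif5b* 0.32, *Eif2d* 0.33, *Eif4h* 0.33, *Eif3d* 0.34 and *Eif4ebp1* 0.35. Under equal totals without mitochondrial genes they were *Eif4a3* 0.011, *Eif2b4* 0.016, *Eif6* 0.070, *Eif1b* 0.10, *Eif4enif1* 0.12, *Eif3g* 0.13, *Eif4b* 0.14, *Eif3l* 0.16, *Eif3h* 0.17, *Eif4g2* 0.17, *Eif4e2* 0.17, *Eif5b* 0.18, *Eif2d* 0.18, *Eif4h* 0.18, *Eif3d* 0.20 and *Eif4ebp1* 0.20. Median centring turned *Eif4ebp2* to −0.074 and *Eif5a* to −0.054, and DESeq2 put *Eif4ebp2* at −0.00035. Leaving out 1 muscle gave ranges across 0 of −0.12 to 0.024 for *Eif4e2*, −0.079 to 0.052 for *Eif2d*, −0.061 to 0.027 for *Eif4h*, −0.15 to 0.072 for *Eif4ebp1*, −0.22 to 0.020 for *Eif3g*, −0.24 to 0.0097 for *Eif1b*, −0.14 to 0.14 for *Eif4ebp2* and −0.15 to 0.036 for *Eif3d*. The log2 ratio of *Eif4ebp1* to *Eif4ebp2* ranged from −0.29 to 0.14 and that of *Eif2b5* to *Eif2s1* from −0.16 to 0.024. The count of pairs past the adjusted threshold was 0 under all alternatives, but with 4 muscles a group 1 pair alone could not pass. Even the pairs at the smallest possible p (exact permutation test, 0.0286) had an adjusted p of 0.105 with all muscles. The count therefore says nothing about stability.

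For elongation and release factors equal totals gave 4 higher and 1 lower and equal totals without mitochondrial genes 2 and 2. For stress response targets a minimum in every muscle left 2 higher, since fewer genes were tested, and equal totals gave 10 higher. For the regulators of mTORC1, MNK and the cap complex, 1 was higher with no filter, with median centring (5 lower), with no variance trend and with DESeq2, 6 were higher and 0 lower with equal totals, and 5 and 1 with equal totals without mitochondrial genes; leaving out 1 muscle gave 1 to 3 higher.

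The replicate numbers are shared by the groups but nothing says that they mark pairs: deviations of same-numbered muscles correlated at 0.0501, 0.0309, 0.0722 and 0.146. With the replicate block 4 members were higher and 14 lower; *Eif2ak1* (adjusted p = 0.074) and *Eif3a* (0.054) lost the call, and *Eif2b1* (0.047) and *Eif3k* (0.033) gained it, in the limma fit. With the pairing the 3 ratios whose groups were apart had an adjusted p of 0.275 (exact sign flips). With 4 pairs of muscles, sign flips cannot give a p under 0.05 whatever the values, so this says nothing about the ratios. At 4 muscles a group and this depth, small changes of members read at low counts, such as *Eif5a2*, could not be resolved.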
